A study of Homo sapiens with 9 samples.

Results

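The genes described here are 9 genes with higher signal after 14 days of differentiation than in undifferentiated human embryonic stem cells: ZFHX4, ZFHX4-AS1, SCUBE3, ADAMTS18, TSPAN11, GPR162, DPYSL4, PCP4 and TMEM178A. They are 9 of 19775 genes measured by a probe set with a single gene symbol, and they hold 18 of the 54675 probe sets on the array. They were chosen by their measured rise at day 14, in either or both differentiation media, and not by a shared function. The rises below therefore describe the choice, and the calls given for them restate it and support nothing. No numerical threshold was set for the choice.

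The series compared 3 established human embryonic stem cell lines, Shef3, H14 and Shef1, in 3 groups of 3 Affymetrix arrays, each group with 1 array per line. The hESC group (day 0) is undifferentiated cells grown in a medium with serum replacement and basic FGF, on inactivated feeder cells (mouse embryonic fibroblasts). The DFNB group (day 14) is cells of the same lines dissociated, plated on laminin and kept in DFNB, a mixture of DMEM and F12 to which the N2 and B27 supplements were added. The FGF3+10 group (day 14) was kept the same way with FGF3 and FGF10 added, each at 50 ng/ml. Day, substrate and basal medium all differ between day 0 and day 14, so their parts in a change cannot be told apart. No group had more than 1 array of a line, and the labels do not name separate cultures, so p-values measure the spread between these arrays. In such bulk RNA, more cells of a type and more RNA per cell cannot be told apart either.

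Signals are on a log scale whose base is not stated and is taken as 2, so that 1 unit stands for a doubling only under that assumption. Each array had the same median of 3.20 over all probe sets. Low signals are noisy, and level 4 serves below as a mark for dim signals. Most pluripotency markers were high on the hESC arrays. TERT stood near level 4 there, at 3.60, 4.74 and 4.04 in Shef3, H14 and Shef1. ZFP42 stood at 10.47 and 9.23 in hESC of Shef3 and H14 but at -0.48 in Shef1. In that line it was below 0 at day 14 too. The mean signal of 9 measured pluripotency markers ran from 8.18 to 9.80 on the hESC arrays, from 1.63 to 7.24 in DFNB and from 2.00 to 7.21 in FGF3+10. The lowest day 14 means, both of Shef3, took in NANOG, PRDM14 and LEFTY1 signals below 0. Poly-A control transcripts averaged 7.21 to 7.28 on the Shef1 arrays and 4.72 to 5.43 on those of Shef3 and H14, so the Shef1 arrays stood apart in this control.

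The 9 genes work in different places in the cell. ZFHX4 encodes a very large transcription factor with zinc fingers and homeodomains that is known from the developing brain, and ZFHX4-AS1 is a long noncoding RNA transcribed from the opposite strand at the same locus. SCUBE3 and ADAMTS18 are secreted: the first is a glycoprotein with EGF-like and CUB domains that can act with TGF-beta and BMP receptors, the second a metalloprotease of the extracellular matrix known for its part in eye development. TSPAN11 is a tetraspanin, a small membrane protein that organises other membrane proteins, and GPR162 is an orphan receptor of the rhodopsin type. DPYSL4 belongs to the collapsin response mediators, which link semaphorin signals to the cytoskeleton of growing neurites. PCP4 is a small calmodulin-binding protein of Purkinje and other neurons, and TMEM178A is a membrane protein of the endoplasmic reticulum that restrains calcium influx in osteoclasts.

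Promoters of 4 of the 9 members are shown from the RefSeq table of promoters (build GRCh38.p14). It held none for SCUBE3, PCP4 and GPR162, and ZFHX4 and ZFHX4-AS1 were left out of this part. The sequences are shown because these genes rose together in all 3 lines. Each is the 250 bases before an annotated start on the gene's own strand, at chr12:30926498-30926747 (plus strand) for TSPAN11, chr10:132186698-132186947 (plus strand) for DPYSL4, chr16:77435035-77435284 (minus strand) for ADAMTS18 and chr2:39665233-39665482 (plus strand) for TMEM178A. Capitals mark matches, on either strand, to the TATA box (TATAAA), the CCAAT box (CCAAT), the GC box (GGGCGG), a homeodomain core (TAATTA) and a SOX core (ACAAAG), and overlapping matches count separately.
TSPAN11: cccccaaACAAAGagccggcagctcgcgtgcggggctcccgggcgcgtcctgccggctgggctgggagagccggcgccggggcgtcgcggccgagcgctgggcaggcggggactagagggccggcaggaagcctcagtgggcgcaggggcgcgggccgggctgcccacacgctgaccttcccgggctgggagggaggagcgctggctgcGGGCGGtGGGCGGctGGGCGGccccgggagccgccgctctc
DPYSL4: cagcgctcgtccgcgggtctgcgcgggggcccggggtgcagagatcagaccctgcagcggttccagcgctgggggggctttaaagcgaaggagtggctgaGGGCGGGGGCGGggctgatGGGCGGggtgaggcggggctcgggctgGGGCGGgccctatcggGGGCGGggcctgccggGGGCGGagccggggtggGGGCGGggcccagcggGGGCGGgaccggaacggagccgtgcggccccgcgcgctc
ADAMTS18: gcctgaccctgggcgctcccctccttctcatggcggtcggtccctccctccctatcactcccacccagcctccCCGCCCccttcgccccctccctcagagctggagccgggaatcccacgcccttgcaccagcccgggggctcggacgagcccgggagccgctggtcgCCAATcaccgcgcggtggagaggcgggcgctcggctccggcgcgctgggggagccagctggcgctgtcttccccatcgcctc
TMEM178A: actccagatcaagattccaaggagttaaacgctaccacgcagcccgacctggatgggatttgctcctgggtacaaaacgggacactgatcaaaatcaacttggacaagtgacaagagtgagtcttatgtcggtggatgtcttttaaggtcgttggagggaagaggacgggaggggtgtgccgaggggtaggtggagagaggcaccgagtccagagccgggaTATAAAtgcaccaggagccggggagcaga

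The promoters of DPYSL4 and TSPAN11 were each 80.0% G and C, and that of ADAMTS18 was 74.4%, against a median of 58.0% over 35116 promoter windows of the same length. The TMEM178A window, at 54.0%, lay just below that median. DPYSL4 held 8 GC boxes, TSPAN11 3, ADAMTS18 1 and TMEM178A 0, and 42.6% of all windows held at least 1. TMEM178A alone among these 4 windows held a TATA box (10.7% of all windows), ADAMTS18 alone a CCAAT box (32%) and TSPAN11 alone a SOX core (13.7%). None of the 4 held the homeodomain core, which 4.35% of all windows held. Thus no motif among those searched was present in all 4. TSPAN11 and TMEM178A each had a further annotated start, whose windows are not printed. They were 77.2% and 78.8% G and C, with 4 GC boxes in each and no TATA box or SOX core.

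The main probe set of a gene was the one with the highest mean over the 9 arrays. For these, the day 14 signal exceeded the day 0 signal of the same line in 54 of 54 comparisons (9 genes, 3 lines, 2 media), by 1.62 to 7.26 units. All 6 day 14 arrays stood above all 3 hESC arrays for each of the 9 genes, which was so for 4.23% of all genes. In limma, 8 of the 9 members passed an adjusted p of 0.05 as higher in DFNB than in hESC, a call given to 0.116% of all genes, and 3 of the 9 passed as higher in FGF3+10 (0.0961% of all genes). These counts restate how the members were picked. With the cell line as replicate block, 9 members passed in DFNB and 6 in FGF3+10. The block also raised the share of all genes called in either direction, from 0.202% to 0.956% in DFNB and from 0.177% to 0.582% in FGF3+10. With 1 line left out, 0 members passed in either comparison, whichever line it was, in fits with 2 arrays a group. Those fits called at most 0.0202% of all genes in DFNB and 0.0253% in FGF3+10, so few genes passed at all. The median change over all genes, each at its brightest probe set, was -0.19 in both comparisons, and -0.08 and -0.05 after quantile normalisation.

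**Figure D1:**
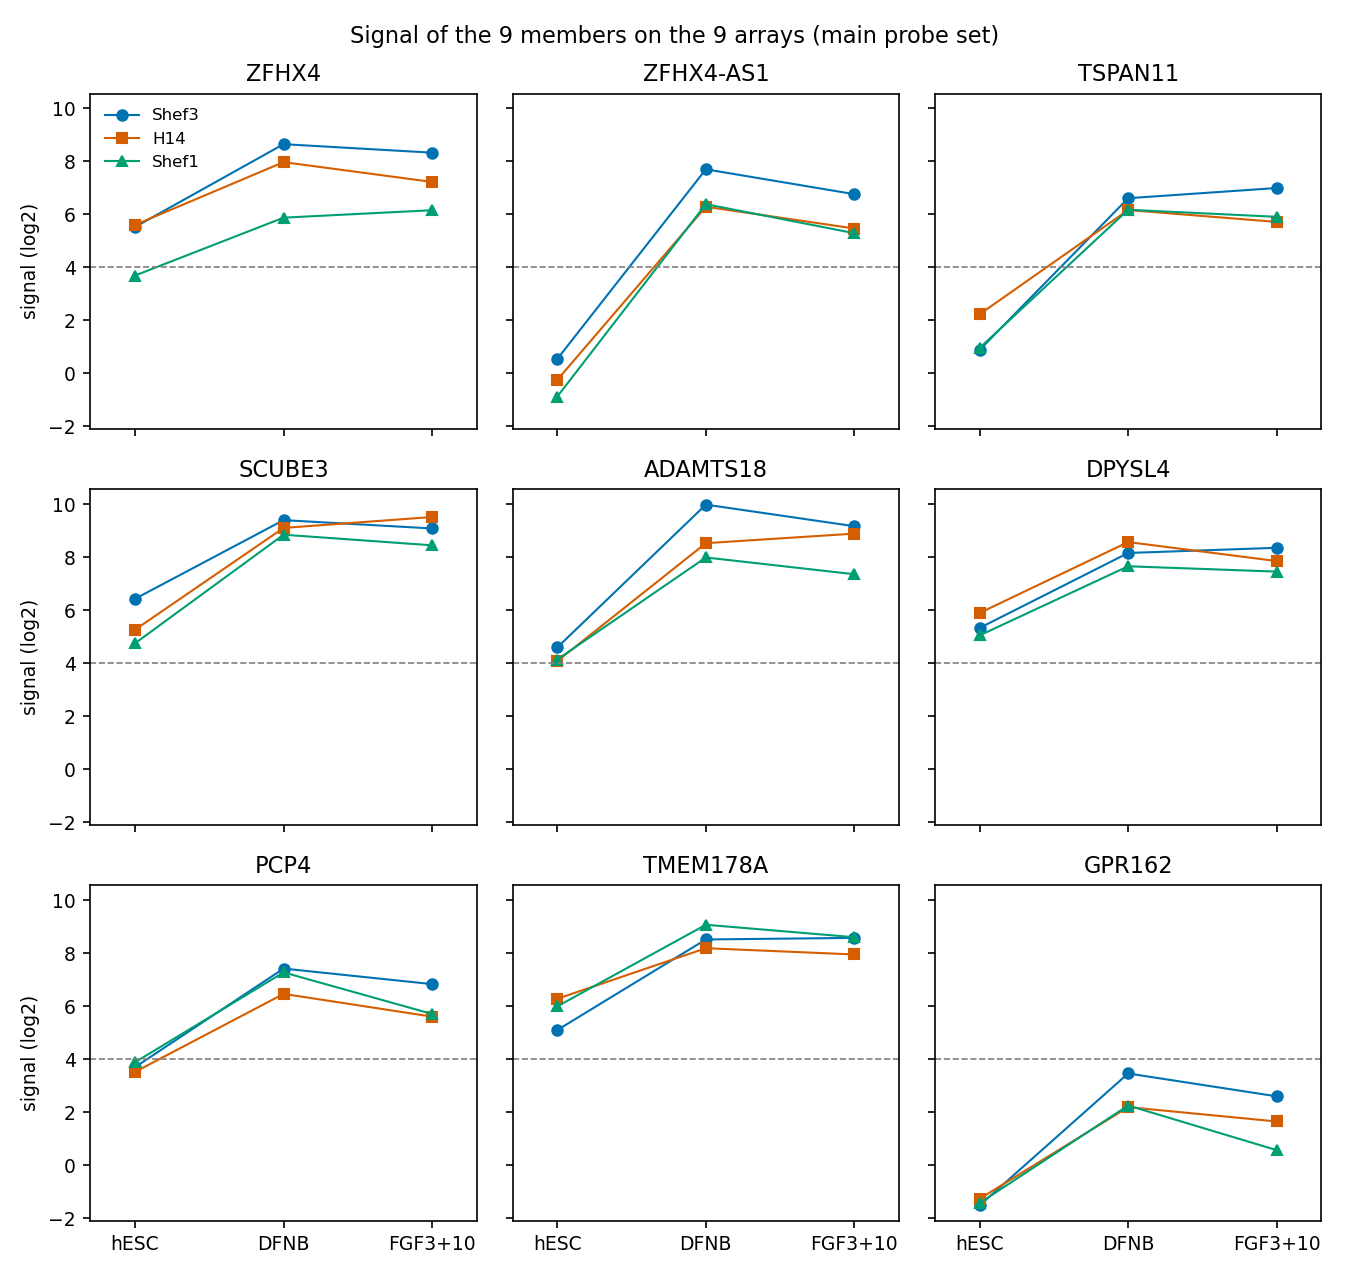
Signal (log2, main probe set) of the 9 members on the 9 arrays, with lines joining the 3 groups of a cell line and a dashed line at level 4. In each panel all 6 day 14 arrays lie above the 3 hESC arrays, and GPR162 stays below 4 throughout.

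ZFHX4 stood at 5.52, 5.60 and 3.69 in hESC of Shef3, H14 and Shef1. In DFNB it stood at 8.65, 7.97 and 5.87, and in FGF3+10 at 8.33, 7.22 and 6.16. The groups did not overlap, but only just: the DFNB value of Shef1 was 0.27 above the highest hESC value. Shef1 was the lowest line in every group, so the group means carried large SDs (4.94 ± 1.08 in hESC, 7.50 ± 1.45 in DFNB and 7.24 ± 1.09 in FGF3+10, n = 3). The change within a line was steadier, at 3.13, 2.37 and 2.18 in DFNB and 2.81, 1.62 and 2.47 in FGF3+10. ZFHX4 was the member that did not pass in DFNB without the block and passed with it. Its rank by size of change was 313 of 19775 genes in DFNB.

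The antisense RNA ZFHX4-AS1 had the widest change of the 9 on the log scale. It stood at 0.54, -0.25 and -0.88 in hESC, at 7.70, 6.29 and 6.38 in DFNB and at 6.76, 5.46 and 5.29 in FGF3+10. The hESC values are dim, so the size of the change (6.99 ± 0.58 and 6.03 ± 0.58, SE) rests on values at which the array does not measure well. With values below 4 set to 4, it was 2.79 and 1.84. Shef3 was the highest line in all 3 groups, and Shef1 and H14 stood close together at day 14. In the main probe set of ZFHX4, Shef1 lay well below H14. In ZFHX4 probe set 241700_at, H14 and Shef1 stood at 7.01 and 6.80 in DFNB and at 6.59 and 6.74 in FGF3+10. The dim ZFHX4 probe set 1559270_at again had Shef1 below H14 at day 14. The spans of ZFHX4 and ZFHX4-AS1 overlap in RefSeq. Their correlation over the 9 arrays was 0.84, and 0.77 for deviations from the group means. Both values come from the same arrays and are descriptions.

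SCUBE3 stood at 6.43, 5.26 and 4.75 in hESC, at 9.40, 9.11 and 8.85 in DFNB and at 9.09, 9.52 and 8.45 in FGF3+10. Every array was above 4, so this rise does not rest on dim signals. The spread of the lines was wider in hESC (SD 0.86) than in DFNB (SD 0.28). Shef3, the highest line at day 0, had the smallest rise, at 2.97 in DFNB and 2.66 in FGF3+10.

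ADAMTS18 stood at 4.59, 4.08 and 4.14 in hESC. In DFNB it reached 9.99, 8.53 and 7.99, and in FGF3+10 9.17, 8.89 and 7.36. The hESC arrays lay close together (SD 0.28), while the day 14 arrays spread by 1.03 and 0.98 (SD), with Shef3 highest and Shef1 lowest in both media. The mean change was 4.56 ± 0.62 in DFNB and 4.20 ± 0.62 in FGF3+10 (SE, 3 and 3 arrays).

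TSPAN11 stood at 0.88, 2.23 and 0.95 in hESC, at 6.61, 6.16 and 6.17 in DFNB and at 6.99, 5.71 and 5.91 in FGF3+10. The hESC values were all dim and the day 14 values all above 4. H14 had the highest hESC value and the smallest rise, at 3.93 and 3.49, against 5.73 and 6.11 in Shef3 and 5.22 and 4.95 in Shef1. With values below 4 set to 4, the mean change of 4.96 in DFNB became 2.31 and that of 4.85 in FGF3+10 became 2.20.

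GPR162 stood at -1.52, -1.28 and -1.44 in hESC, at 3.46, 2.19 and 2.25 in DFNB and at 2.59, 1.64 and 0.56 in FGF3+10. All 9 arrays were below 4, and with values below 4 set to 4 there was no change to measure. The 3 hESC arrays agreed within an SD of 0.13, and the day 14 arrays within 0.72 and 1.02. The receptor's rise is thus a shift among dim signals, in the same direction in all 3 lines and both media.

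DPYSL4 stood at 5.33, 5.90 and 5.05 in hESC, at 8.16, 8.57 and 7.66 in DFNB and at 8.36, 7.86 and 7.46 in FGF3+10. All arrays were above 4. Its DFNB rise was the most even of the 9 across lines, at 2.83, 2.68 and 2.61 (SD 0.11), while in FGF3+10 it was 3.03, 1.96 and 2.41.

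PCP4 stood at 3.69, 3.52 and 3.88 in hESC, at 7.42, 6.46 and 7.27 in DFNB and at 6.83, 5.60 and 5.70 in FGF3+10. The hESC values lay just under 4. The mean rise was 3.35 ± 0.42 in DFNB and 2.35 ± 0.42 in FGF3+10 (SE), and setting values below 4 to 4 left 3.05 and 2.04.

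TMEM178A stood at 5.10, 6.28 and 5.99 in hESC, at 8.52, 8.19 and 9.07 in DFNB and at 8.58, 7.95 and 8.60 in FGF3+10. It differed from the other members in the order of the lines. Shef1, among the lowest lines for most members at day 14, was the highest here in both media, though level with Shef3 in FGF3+10. Its correlation with ZFHX4 for deviations from the group means was -0.40. H14 had the highest hESC value and rose by 1.91 and 1.67, against 3.42 and 3.48 in Shef3.

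**Figure D2:**
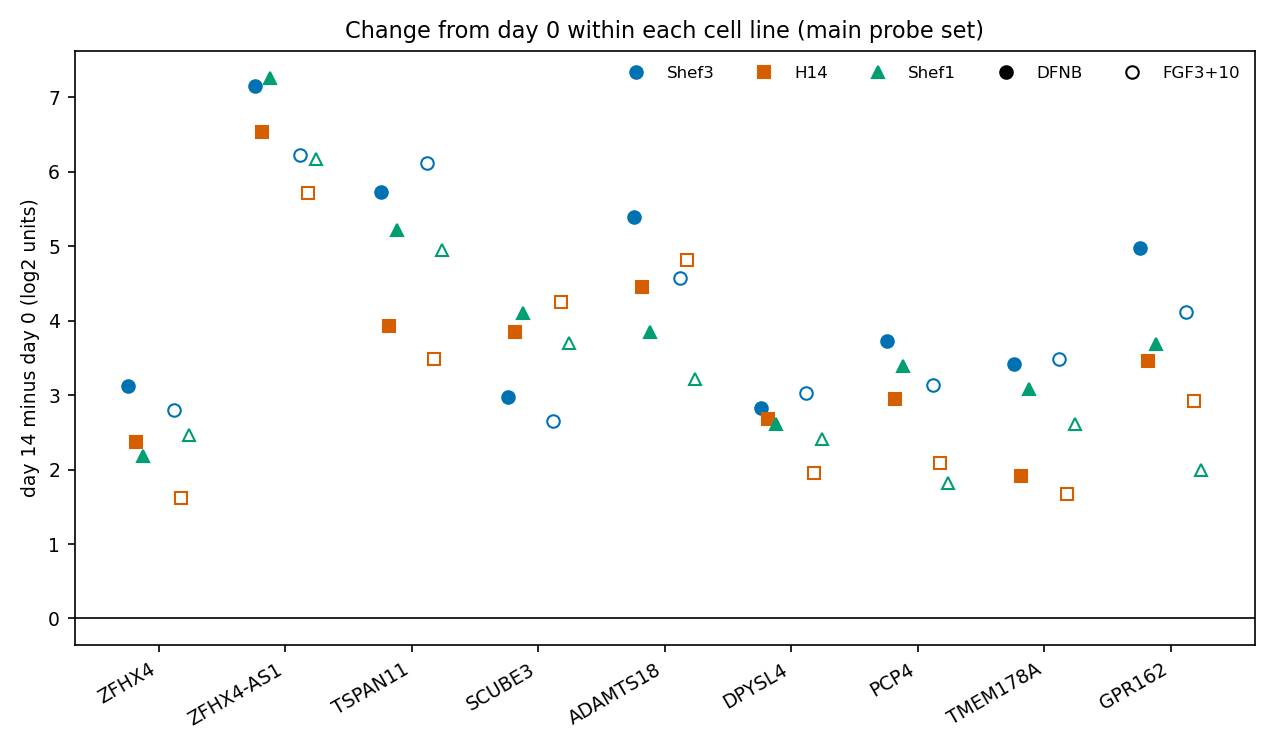
Change from day 0 (log2 units, main probe set) within Shef3, H14 and Shef1 for the 9 members, filled in DFNB and open in FGF3+10. All 54 points lie above 0, from 1.62 (ZFHX4, H14, FGF3+10) to 7.26 (ZFHX4-AS1, Shef1, DFNB), and H14 lies lowest for TSPAN11 and TMEM178A.

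Of the 9 genes, 5 had further probe sets, 9 in all. In these the day 14 signal was above that of day 0 in 42 of 54 comparisons, with changes from -2.07 to 8.87, and 4 of the 9 rose in all lines and media. For ZFHX4, probe set 241700_at went from 4.11, 4.21 and 4.19 in hESC to 7.78, 7.01 and 6.80 in DFNB and 7.58, 6.59 and 6.74 in FGF3+10. Here the 3 hESC lines were alike, unlike in the main probe set, where Shef1 was lower. The third ZFHX4 probe set, 1559270_at, was dim, and in Shef1 it changed by -2.07 in DFNB and 1.29 in FGF3+10. The other probe set of ZFHX4-AS1 went from a mean of 1.76 ± 0.95 to 5.60 ± 0.76 in DFNB and 4.45 ± 0.73 in FGF3+10 (SD, n = 3), with a smaller change than the main probe set.

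SCUBE3 probe set 230290_at rose by 6.75, 8.40 and 4.62 in DFNB and 6.36, 8.87 and 4.66 in FGF3+10, with Shef1 at 3.53 and 3.56 at day 14 and the other lines at 6.49 to 7.17. SCUBE3 probe set 230253_at changed by a mean of -0.71 and -0.25. Probe set 217600_at, below 4 on all arrays, was higher at day 14 in all 6 comparisons, by 0.66 to 1.85. DPYSL4 probe set 205492_s_at separated the lines: it rose by 2.997 and 3.38 in Shef3 and H14 in DFNB, but changed by -0.02 in Shef1, and in FGF3+10 by 3.24, 2.44 and 0.30. The third, 214301_s_at, stayed below 4 on all arrays. ADAMTS18 probe set 1553234_at went from 2.02 to 4.88 and 4.55 in Shef3, but changed by -0.37 to 0.34 in the other lines. Probe sets of a gene can cover different transcript ends, and no position of them was used here.

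**Figure D3:**
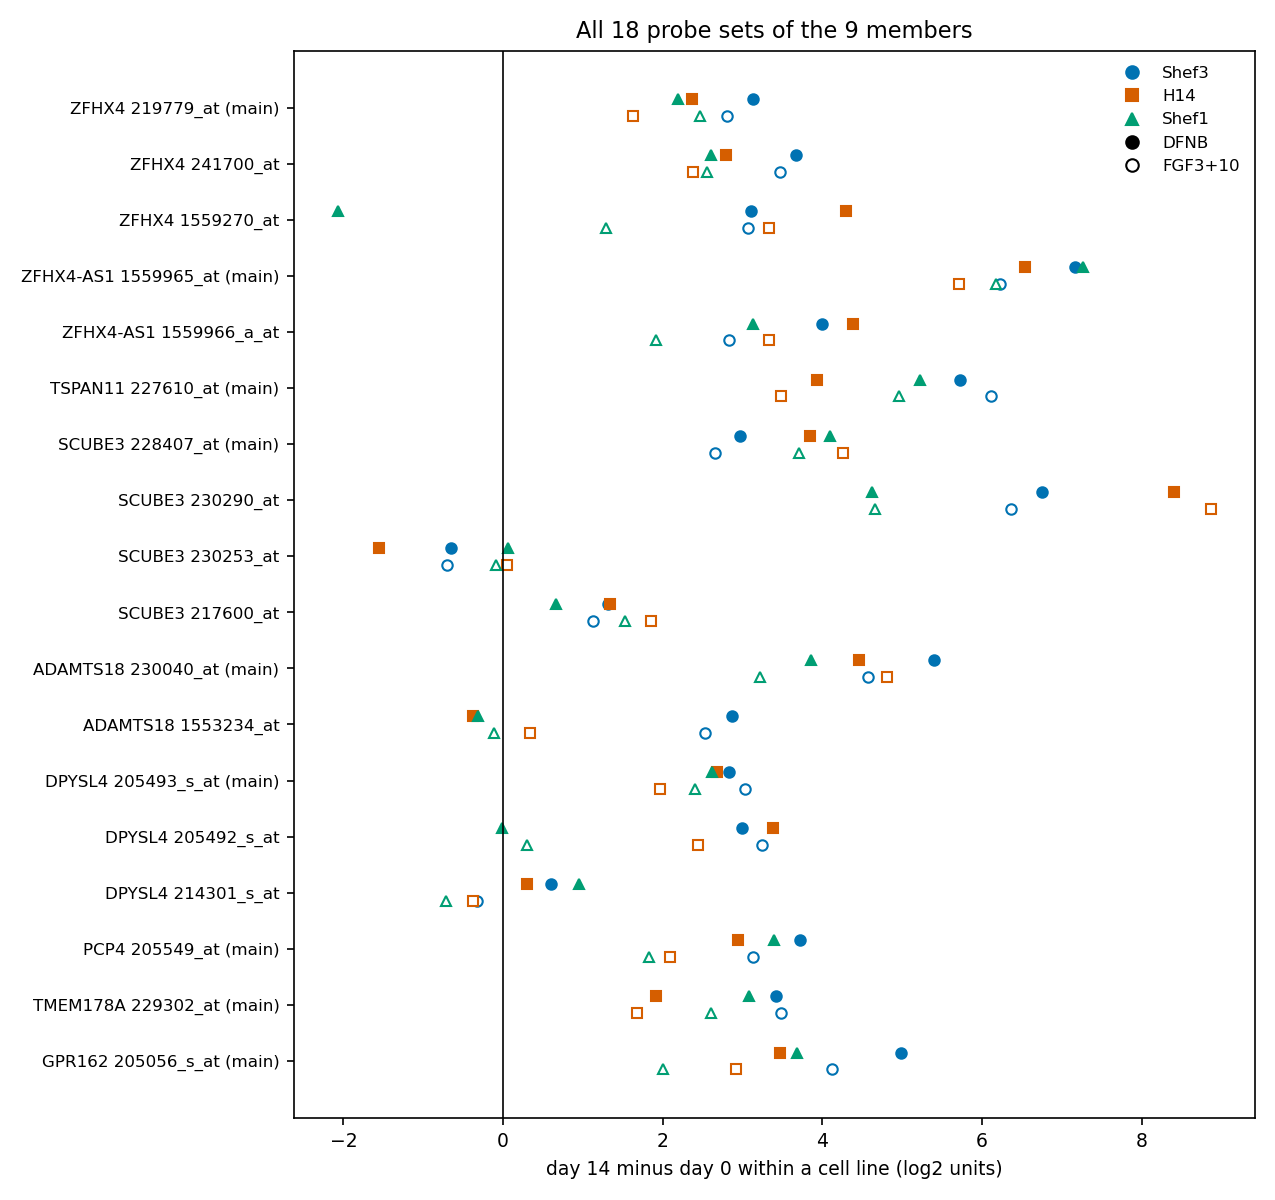
Change from day 0 (log2 units) within each cell line for all 18 probe sets of the 9 members, filled in DFNB and open in FGF3+10. The main probe sets lie above 0 throughout, while SCUBE3 230253_at, ADAMTS18 1553234_at and DPYSL4 214301_s_at lie around 0 in most lines and DPYSL4 205492_s_at is near 0 in Shef1 alone.

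The effect of adding FGF3 and FGF10 was not what the members were picked on, although 8 of them passed in DFNB, and the DFNB arrays enter both comparisons. None of the 9 differed between FGF3+10 and DFNB in limma at an adjusted p of 0.05, and neither did any other gene (0% of 19775 genes). At an unadjusted p below 0.05 there were 300 genes (1.52%), with 1 member among them, PCP4. The mean was lower with the FGFs for all 9 members, as for 49.5% of all genes, and 21 of the 27 differences within lines were below 0. Choosing genes with high DFNB signal can itself push this difference below 0. The direction of these differences, here and below, therefore cannot be read as an effect of the FGFs.

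PCP4 differed by -0.59 in Shef3, -0.86 in H14 and -1.57 in Shef1, lower with the FGFs each time. The mean difference was -1.01 (95% interval -1.96 to -0.05, limma adjusted p = 1). GPR162 differed by -0.86, -0.54 and -1.68 (mean -1.03, interval -2.28 to 0.22) and ZFHX4-AS1 by -0.94, -0.82 and -1.10 (mean -0.95, interval -2.27 to 0.36). These 3 members were lower in all 3 lines, which was so for 12.5% of all genes. The second probe set of ZFHX4-AS1 also differed one way, by -1.17, -1.06 and -1.21. The main probe set of the sense gene ZFHX4 differed by -0.32, -0.75 and 0.28, with no common direction. ZFHX4 probe set 241700_at was lower with the FGFs in each line, by -0.21, -0.41 and -0.06. The dim ZFHX4 probe set 1559270_at went both ways, by -0.04, -0.97 and 3.36.

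For the other members the lines went both ways. The mean differences were -0.36 for ADAMTS18 (interval -1.77 to 1.05), -0.26 for ZFHX4 (-2.24 to 1.71), -0.24 for DPYSL4 (-1.12 to 0.64), -0.22 for TMEM178A (-1.15 to 0.72), -0.11 for TSPAN11 (-1.20 to 0.98) and -0.10 for SCUBE3 (-1.19 to 0.99). The intervals include changes of about 1 unit in either direction for most of these genes, so the arrays do not show that the media act alike on them.

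These intervals come from the fit without cell line and so take in the spread between lines. With the line as replicate block, the interval was -1.57 to -0.33 for ZFHX4-AS1, -1.80 to -0.21 for PCP4 and -2.10 to 0.04 for GPR162, with a limma adjusted p of 1 for each. The blocked intervals of the other 6 members included 0.

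**Figure D4:**
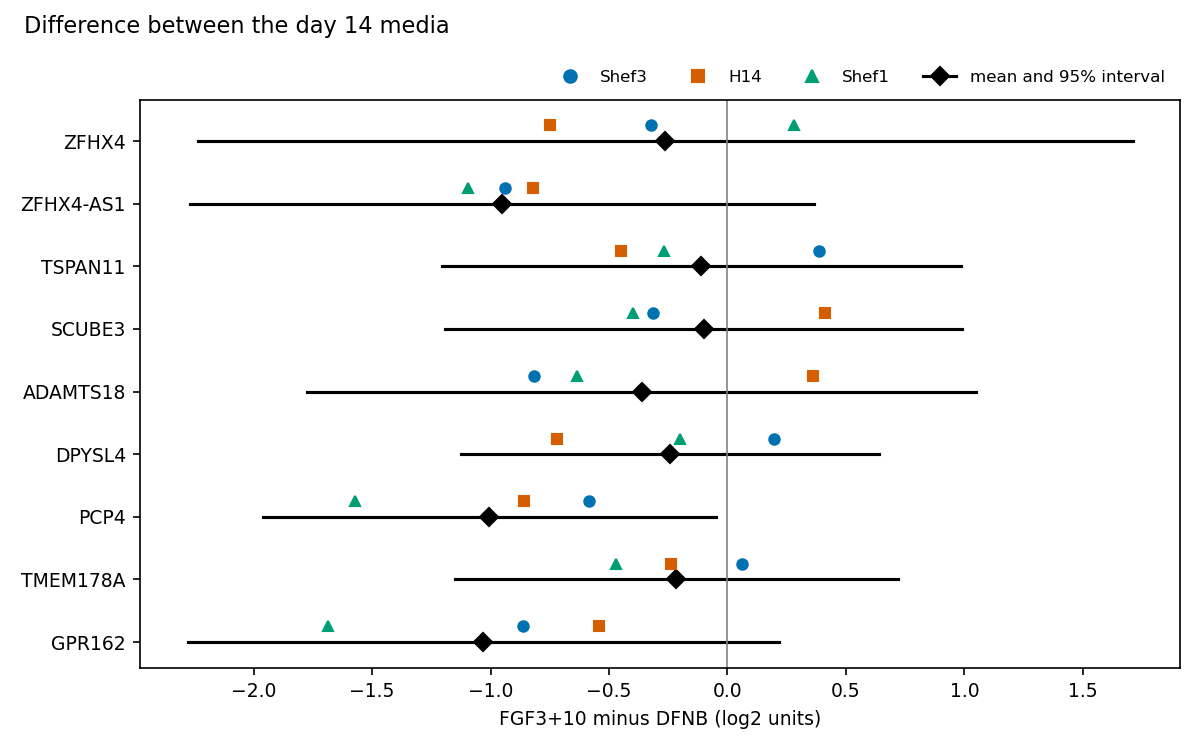
Difference FGF3+10 minus DFNB (log2 units) for the 9 members: diamonds are means with 95% intervals from the limma fit without cell line, and coloured points are the 3 cell lines. All 9 means lie below 0, and of the intervals only that of PCP4 (-1.96 to -0.05) leaves out 0, before adjustment.

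Differences between the lines did not enter the choice of the members. In a limma model of group and line, 0 of the 9 members passed the F test for line, against 0.46% of all genes. At an unadjusted p below 0.05 there were 3 members, ZFHX4, ZFHX4-AS1 and ADAMTS18, against 20.3% of all genes. ZFHX4 had the lowest adjusted p of the members in limma (adjusted p = 0.0654), then ZFHX4-AS1 (adjusted p = 0.0856) and ADAMTS18 (adjusted p = 0.211). Over the alternative settings the adjusted p ran from 0.0131 to 0.904 for ZFHX4, from 0.0209 to 0.762 for ZFHX4-AS1 and from 0.0264 to 0.878 for ADAMTS18. ZFHX4 passed when genes with a mean below 4 were left out (adjusted p = 0.024), and so did ZFHX4-AS1 (0.0328). With the mean of a gene's probe sets, the limma adjusted p was 0.122 for ZFHX4, 0.0766 for ZFHX4-AS1 and 0.575 for ADAMTS18.

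Shef3 tended to be the highest line at day 14. Its mean deviation from the group mean over the 9 members was 0.55 in DFNB and 0.67 in FGF3+10. There 8 and 9 members lay above the group mean. The mean deviation was -0.17 and -0.09 for H14 and -0.38 and -0.58 for Shef1. The pluripotency markers stood the other way round in Shef3 and Shef1. Their mean signal at day 14 was 1.63 and 2.00 in Shef3 and 7.24 and 7.18 in Shef1. In H14 these markers averaged 5.92 in DFNB and 7.21 in FGF3+10, the latter level with Shef1. Their summed level over 9 markers was 73.6 to 88.2 in hESC, 14.6 to 65.1 in DFNB and 18.02 to 64.8 in FGF3+10, and none of the 9 was below 4 on all arrays. In day 14 Shef3, NANOG (-10.17 and -7.62) and PRDM14 (-5.75 and -4.18) lay far below 0, which lowered these means and sums. Mesenchyme markers averaged 10.90 and 10.29 in day 14 Shef3, 10.02 and 8.12 in H14 and 8.48 and 6.61 in Shef1. Their summed level over 10 markers was 75.5 to 87.2 in hESC, 84.8 to 109 in DFNB and 66.1 to 103 in FGF3+10. Neural progenitor markers were lower in day 14 Shef3, at a mean of 6.87 and 7.17, than in Shef1 (8.05 and 8.20). H14 was the lowest line for them, at 6.31 and 6.84. Neuronal markers were higher in day 14 Shef3, at 6.98 and 7.47, than in Shef1 (6.37 and 5.35). In H14 they stood above Shef3 in DFNB (7.97) and below it in FGF3+10 (6.25). The part of these markers, and of the higher poly-A controls on the Shef1 arrays, in the members' levels was not tested.

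Whether the day 14 change itself differed between lines was tested in limma with a mean for each line at day 0 and at day 14. The spread there comes from the 2 day 14 arrays of a line, which differ in medium, so these p-values do not measure repeats of a line. None of the 9 members passed, nor any other gene (0%), and 2 members had an unadjusted p below 0.05, against 19.4% of all genes. The count over all genes depended on the setting: with the floor of 4, 1744 of 13406 genes passed (13%) and 0 of the 8 members tested, and with a variance trend 8 genes passed and no member. The 2 members with an unadjusted p below 0.05 in the main fit were TSPAN11 (limma adjusted p = 0.211) and TMEM178A (limma adjusted p = 0.233). The change in H14 minus that in Shef3 was -2.21 for TSPAN11 (95% interval -3.44 to -0.97) and -1.66 for TMEM178A (-2.76 to -0.56). In each case the hESC level of H14 was the highest of the 3 lines. For TSPAN11 the hESC values were dim, at 2.23 in H14 and 0.88 in Shef3, so its difference rests in part on signals below 4.

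The families of the members are described beside them. Calls were rare over all genes, at 0.116% higher in DFNB and 0.0961% higher in FGF3+10. A short list without a call therefore says little about its genes. ZFHX4 belongs to the zinc finger homeobox genes, of which 14 were measured, and 0 passed as higher or lower in either medium. The median change of the 13 other than ZFHX4 was 1.17 in DFNB and 0.78 in FGF3+10, against -0.19 for all genes. ZFHX3, its nearest relative, went from 6.44 ± 0.31 in hESC to 8.90 ± 0.68 and 8.47 ± 0.92 (SD, n = 3), with an adjusted p of 0.0949 and 0.179. TSHZ2, of the teashirt zinc fingers, had a change of 2.02 and 1.76, from a dim hESC mean of 2.19. The median of the zinc finger homeobox genes thus lay above that of all genes, with 0 of them called.

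Among 12 measured genes of the SCUBE family and hedgehog release, no gene other than SCUBE3 passed, and the median of the other 11 was 0.82 in DFNB and 0.58 in FGF3+10. SCUBE1, its relative, went from -0.58 ± 1.43 to 5.16 ± 1.63 and 4.63 ± 1.57 (adjusted p = 0.0694 and 0.109), a wider change than that of SCUBE3 but from dim and scattered hESC values. IHH, a hedgehog ligand, had a change of -3.47 and -3.65 (adjusted p = 0.153 and 0.176), from an hESC mean of 4.23 into dim signals. Of 24 measured ADAMTS genes and relatives, no gene other than ADAMTS18 passed, and the other 23 had a median of 0.29 and -0.09. ADAMTS6, a related protease, had a change of 2.80 and 1.74, and PAPLN, a matrix protein with ADAMTS-like domains, of -3.04 and -1.90. Neither passed.

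Of 32 measured tetraspanins no gene other than TSPAN11 passed, and the other 31 had a median of 0.01 in DFNB and -0.13 in FGF3+10. TSPAN10 came nearest, going from -0.32 ± 1.03 to 3.52 ± 0.58 and 2.84 ± 0.71 (adjusted p = 0.0571 and 0.0913), with no array above 4.04. PRPH2, a tetraspanin of photoreceptors, had a change of -1.58 and -3.05, with every array below 4. Of 14 measured orphan receptors no gene other than GPR162 passed, with a median of 0.13 and -0.06 for the other 13. GPR176 and GPR19 had changes of -2.71 and -2.36 in DFNB and did not pass.

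Of 19 genes of the collapsin response mediators and semaphorin signalling no gene other than DPYSL4 passed, and the other 18 had a median of 0.50 and 0.32. SEMA3C, a secreted semaphorin, had a change of 2.61 and 1.82, and FES, a kinase below 4 on every array, of -2.00 and -2.04. Among 11 measured genes of calmodulin and its small binding proteins, NRGN passed beside PCP4. NRGN, or neurogranin, binds calmodulin through an IQ motif as PCP4 does. It rose from 2.16 ± 0.36 in hESC to 5.44 ± 0.24 in DFNB and 5.43 ± 0.06 in FGF3+10 (limma adjusted p = 0.00861 and 0.0123), while the 10 genes other than PCP4 had a median of -0.45 and -0.36.

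Of 15 genes of the TMEM178 family and store-operated calcium entry no gene other than TMEM178A passed, and the other 14 had a median of 0.15 and 0.09. ATP2A3, a calcium pump of the endoplasmic reticulum, went the other way, from 4.33 ± 0.53 to 0.09 ± 0.55 and 1.88 ± 1.44 (adjusted p = 0.0571 and 0.208). This fall ran from near level 4 into dim signals. ITPR3, a calcium release channel, had a change of -1.52 and -2.09. In these 8 lists no gene passed as lower, a call given to 0.086% of all genes in DFNB and 0.0809% in FGF3+10.

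**Figure D5:**
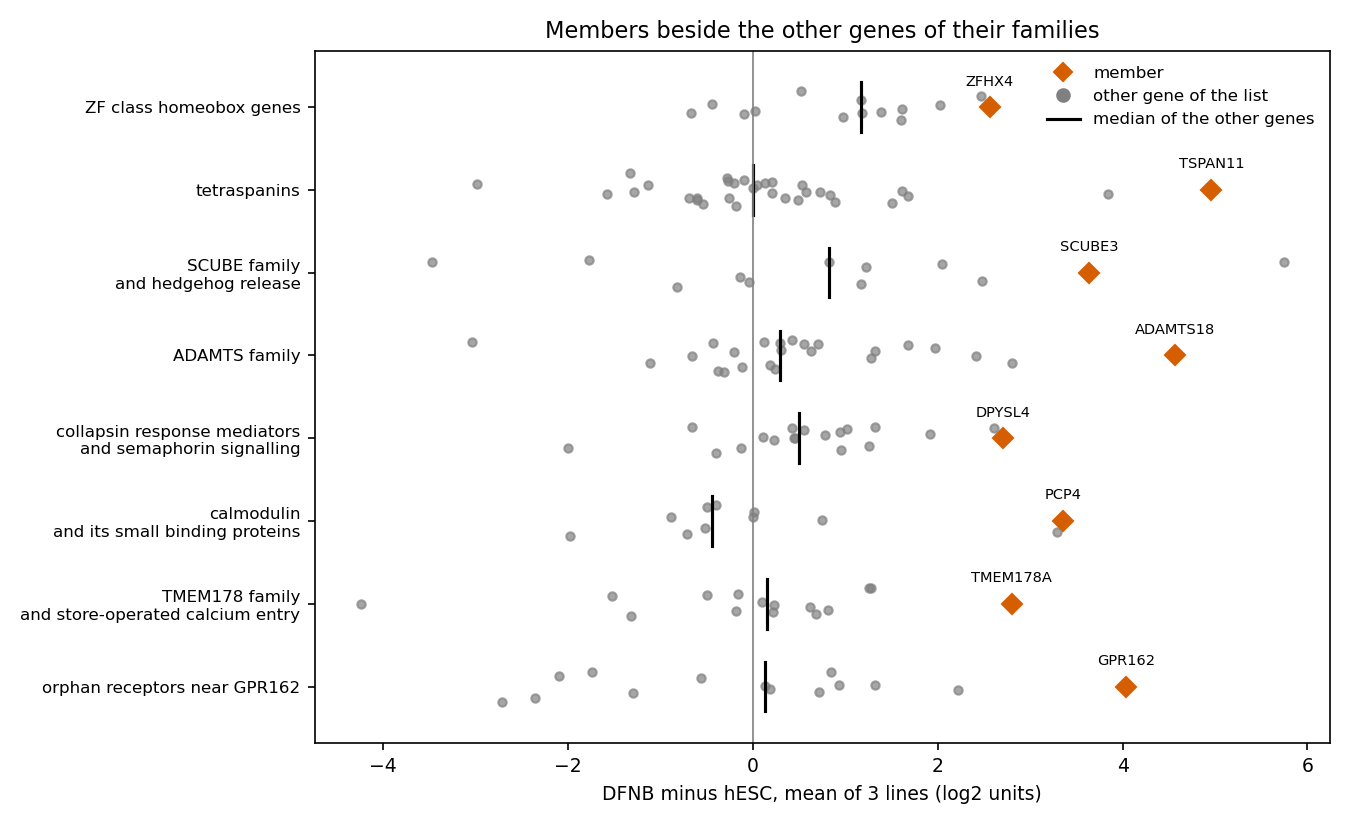
Change in DFNB against hESC (log2 units, mean of 3 lines) for the 8 members with a family list, as diamonds, beside the other measured genes of each list, as grey points with their median as a bar. The members were picked for their rise, and the medians of the other genes run from -0.45 (calmodulin and its small binding proteins) to 1.17 (zinc finger homeobox genes).

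Among genes next to a member on the chromosome in RefSeq, only ZFHX4-AS1, itself a member that overlaps ZFHX4, passed. Beyond that pair PEX2, a peroxisome gene, stayed at 7.87 ± 0.53, 8.08 ± 0.30 and 8.04 ± 0.24 in hESC, DFNB and FGF3+10, and LINC01111 had a change of 0.51 and 0.72. The neighbours of TMEM178A, MAP4K3-DT and THUMPD2, had changes of -0.21 and -0.78 in DFNB, and those of ADAMTS18, SYCE1L and NUDT7, of 0.50 and -1.10. IGSF5 and DSCAM beside PCP4 had -0.18 and -0.35, and JAKMIP3 and STK32C beside DPYSL4 had -0.36 and -0.40. TCP11 and ZNF76 beside SCUBE3 had -0.63 and 0.59, CD4 and P3H3 beside GPR162 -0.72 and 0.57, and LOC645485 and DDX11-AS1 beside TSPAN11 -0.01 and -0.49. In DFNB the changes of the neighbours outside the pair lay between -1.10 and 0.59, whereas each member's mean change was above 2.

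The members resembled each other across the arrays, as genes picked for one pattern must: the 36 pairs correlated at 0.64 to 0.98 over the 9 arrays, with a median of 0.93. After removal of the group means the median was 0.48, with 29 of 36 pairs above 0 and a range from -0.78 to 0.89. Among brighter genes outside the members, the most alike over the 9 arrays (Pearson's r, a description) were POFUT4 for ZFHX4 (0.99), REV3L for ZFHX4-AS1 (0.99), PCDH7 for TSPAN11 (0.99) and ZHX1 for SCUBE3 (0.98). They were RAI1 for ADAMTS18 (0.98), ZNF521 for DPYSL4 (0.99), LOC646903 for PCP4 (0.99), MAP2 for TMEM178A (0.99) and FBXL17 for GPR162 (0.98). MAP2, a microtubule protein of neurons, went from a mean of 6.30 to 8.99 and 8.83, and PCDH7, a protocadherin, from 8.09 to 9.97 and 9.95. TENM4, a teneurin of the developing nervous system, was among the 3 most alike for both ZFHX4-AS1 (0.98) and TSPAN11 (0.98), and went from 5.18 to 7.80 and 7.74. ADAMTS18 was itself among the 3 most alike for ZFHX4-AS1 and GPR162 (0.98 and 0.97).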

How the data were processed

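The deposited table holds log2 values (the base is taken as 2; no source states it) for 54675 probe sets on 9 arrays, as the authors deposited them, each with the same median; how probes were summarised and the background corrected is not given in the sources used here. Per the labels' protocols, labelling used the 3' IVT method. Probe sets with 1 symbol (41091; 1801 had several and 62 were controls) were named through Entrez identifiers in RefSeq (41037 matched), and each of 19775 genes took its probe set with the highest mean. Comparisons used limma 3.58.1 (R 4.3.3; lmFit, eBayes, Benjamini-Hochberg over all genes, call below 0.05), tested on simulated data. The members and lists were chosen with earlier results of these data known. Named genes were all members, called genes of each list (at most 4) or else the 2 with the largest change, the nearest measured genes on the chromosome, and the 3 most alike genes among those above the median gene in mean level, of which the text gives the first outside the members and a few more. Marker lists were used for the pluripotent, mesenchyme, neural progenitor and neuronal levels by line. The closing section gives the median changes of all lists but the pluripotent and mesenchyme ones. The same cell line occurs in each group, so line pairs the arrays by its label; arrays of 1 line, each taken relative to its group mean, correlated at 0.0861 to 0.713. Alternatives were the line as block, quantile normalisation, mean of probe sets, a floor of 4, no dim genes, array weights, a variance trend, and leaving out lines or arrays. The number of arrays limits the precision.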

Additional observations from a re-analysis of the deposited data

Results flagged for a closer look

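The second probe set of ADAMTS18, 1553234_at, was higher at day 14 in Shef3 but changed little in Shef1. It rose by 2.86 in DFNB and 2.53 in FGF3+10 in Shef3 and changed by -0.32 and -0.11 in Shef1, so that the day 14 change was 2.91 units larger in Shef3. The difference was not tested for this probe set. The 2 changes of a line share 1 hESC array, and 3 of the 9 arrays were above level 4.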

How the results depend on the processing

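The rises kept their direction in all settings run. The number of members passing in DFNB, 8, was 5 with the mean of probe sets. Without replicate 1, 2 or 3 (a line), or without a single array, it ran from 0 to 7; it was 1 without the hESC or DFNB array of Shef1 or the DFNB array of Shef3, 2 without the hESC or DFNB array of H14, and 3 without the hESC array of Shef3 or the FGF3+10 array of H14. In FGF3+10 it was 3, and 6 with the cell line as replicate block, 5 with the floor of 4, 7 without dim genes, 8 with array weights and 6 with a variance trend; leaving out a line or an array gave 0 to 3, with 0 without the hESC array of Shef1 or the FGF3+10 array of H14 and 1 without the hESC array of H14. The block left the other comparison at 0. For the cell line F test, 0 members (0.46% of all genes) became 1 with the floor (3.49%), 2 without dim genes (4.27%), 3 with array weights (22.6%) and 1 with the trend (3.02%); all genes were 217 with the mean of probe sets, 58 after quantile normalisation and 4 to 55 in leave-outs. GPR162 is not tested with the floor or without dim genes. Over all genes, those called in DFNB went from 40 to 189 with the block, 183 with the floor, 122 without dim genes, 1612 with array weights and 153 with the trend, and in leave-outs from 0 to 72. In FGF3+10 they went from 35 to 115, 123, 66, 284 and 76 in the same settings, and in leave-outs from 0 to 32. For the day 14 change of Shef1 minus Shef3, 0 calls became 2589 with the floor, 1700 without dim genes and 1624 with the trend, and for H14 minus Shef3 754 with the floor, with 0 members in each. The array weights of the model with line stopped before convergence.

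Small differences between FGF3+10 and DFNB changed sign, none of them called: with the mean of probe sets ZFHX4 (0.10) and SCUBE3 (0.20), and with array weights SCUBE3 (0.0454). When lines or arrays were left out, ZFHX4 ran from -1.07 to 0.31, TSPAN11 from -0.50 to 0.14, SCUBE3 from -0.36 to 0.18, ADAMTS18 from -0.79 to 0.21 and TMEM178A from -0.42 to 0.0241. The cause of these changes was not tested, beyond the fewer arrays in those fits.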

Other observations

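Other marker lists, none of whose genes passed apart from S100A14, moved as follows. Of 8 placode and otic markers the median change was 3.01 in both media, with EYA4, a cofactor of placode development, at 4.96 and 4.15 and DLX5, a homeobox factor of the placode region, at 3.02 and 3.61. EYA4 and DLX5 rose from dim hESC means (0.11 and 1.08), and PAX8 of this list changed by -0.38 and -0.02. Of 10 neural progenitor markers the median change was 1.60 in DFNB and 1.75 in FGF3+10, with SIX3 and LHX2, factors of the eye field, at 5.89 and 4.86 in DFNB. SIX3 and LHX2 rose from dim hESC means (0.64 and 2.26), each with an SD of 2.77 in DFNB. SOX3, FABP7 and NES of the same list changed by -1.14, -0.33 and -0.01 in DFNB. Neuronal markers had a median of 0.71 and 0.15 and neural crest markers of 0.81 and 0.40. Of 8 simple epithelium markers, with medians of -0.68 and -0.73, S100A14, a calcium-binding protein, fell from 7.58 ± 0.36 to 2.84 ± 0.61 and 3.35 ± 0.88 (SD, n = 3; limma adjusted p = 0.0185 and 0.0241).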
